A study of Homo sapiens with 24 samples.

Results

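A set of 8 genes best known from neurons, glia, blood cells or the stomach were read in HepG2 cells treated with BET inhibitors: HEPACAM, CPLX2, SCN1A, NFE2, LCP1, P2RY8, PRF1 and TRIM50. They were taken by symbol from the gene count files, which list 26475 symbols, and all 8 were found. The genes were chosen by their lower counts with the inhibitors, among genes of this kind that HepG2 expresses, so these decreases are given below as a description, without a test. HepG2 is a liver cancer cell line that keeps many hepatocyte functions. There were 24 total-RNA libraries in 8 groups of 3: DMSO (the solvent alone), ABBV-075 at 50 nM, ABBV-744 at 50 nM, ABBV-744 at 500 nM, IFNg (interferon gamma), and IFNg together with ABBV-075 at 50 nM, ABBV-744 at 50 nM or ABBV-744 at 500 nM. By the published methods, which describe DMSO and ABBV-075 groups, ABBV-075 was given for 12 h and DMSO for 24 h. The methods name DMSO beside JQ1 and OTX015, BET inhibitors that are not in this series. It is therefore not certain that these times apply to these libraries, and compound and time cannot be told apart there. The labels give no times, and those of the ABBV-744 and IFNg groups and the IFNg dose are not given in the sources used here. All libraries came from 1 cell line. The methods call the DMSO and ABBV-075 samples independent triplicates, but nothing says that the libraries of the other groups came from separate cultures, so the p-values measure the spread between these libraries, which may be technical.

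BET proteins are chromatin readers: their bromodomains bind acetylated lysines on histones and they help RNA polymerase II to elongate transcripts, above all at genes that depend on strong enhancers. ABBV-075 (mivebresib) blocks both bromodomains of each BET protein, and ABBV-744 blocks the second bromodomain selectively. IFNg switches on a programme of immune genes. The 8 genes have no known common function. HEPACAM encodes a cell adhesion molecule of astrocytes and oligodendrocytes that was first described in liver cells. CPLX2 encodes complexin 2, a regulator of SNARE-driven vesicle fusion at the synapse. SCN1A encodes the pore-forming subunit of a voltage-gated sodium channel of neurons. NFE2 encodes a basic leucine zipper factor of red cell precursors and megakaryocytes that pairs with small MAF proteins. LCP1 encodes L-plastin, an actin-bundling protein of leukocytes. P2RY8 encodes a G protein-coupled receptor of B lymphocytes. PRF1 encodes perforin, the pore-forming protein of cytotoxic lymphocytes. TRIM50 encodes an E3 ubiquitin ligase of gastric parietal cells.

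The genes lie on 8 different chromosomes. In the GENCODE annotation of GRCh38, HEPACAM spans chr11:124919205-124936412, CPLX2 chr5:175796310-175884021, SCN1A chr2:165984641-166149214, NFE2 chr12:54292111-54301015, LCP1 chr13:46125920-46211871, P2RY8 chrX:1462581-1537185, PRF1 chr10:70597348-70602759 and TRIM50 chr7:73312536-73328082. CPLX2 is on the plus strand and the others are on the minus strand. P2RY8 sits in the pseudoautosomal region shared by the X and Y chromosomes. HEPACAM, SCN1A, NFE2 and LCP1 each have an annotated gene on the opposite strand, and PRF1 lies within PALD1 on the opposite strand. TRIM50 overlaps a pseudogene, RPL7AP77, on the opposite strand. The counts used are those of the sense strand, and between 98.3% and 98.5% of the reads on genes in each library were on the annotated strand. TRIM50 has the near-identical relatives TRIM73 and TRIM74, which were listed at 0 counts in every library. Reads shared between such copies would not be counted as unique, so the level of TRIM50 is uncertain in that respect.

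The promoter sequences of the 3 genes with the highest level per kilobase are shown because these genes carry most of the reads and moved together with ABBV-075. They are RefSeq windows of 300 bases on GRCh38.p14, from 250 bases before the start site to 50 after it, in the direction of transcription. Capitals mark a match to 1 of 7 short motifs searched on both strands. HEPACAM is chr11:124935998-124936297 on the minus strand, CPLX2 is chr5:175796283-175796582 on the plus strand and TRIM50 is chr7:73325526-73325825 on the minus strand.
HEPACAM: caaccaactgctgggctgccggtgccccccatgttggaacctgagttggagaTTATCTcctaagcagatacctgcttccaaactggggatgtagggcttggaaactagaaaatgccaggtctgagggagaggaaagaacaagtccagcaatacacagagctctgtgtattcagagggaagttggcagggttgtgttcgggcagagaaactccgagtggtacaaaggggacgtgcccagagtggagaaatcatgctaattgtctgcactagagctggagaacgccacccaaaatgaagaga
CPLX2: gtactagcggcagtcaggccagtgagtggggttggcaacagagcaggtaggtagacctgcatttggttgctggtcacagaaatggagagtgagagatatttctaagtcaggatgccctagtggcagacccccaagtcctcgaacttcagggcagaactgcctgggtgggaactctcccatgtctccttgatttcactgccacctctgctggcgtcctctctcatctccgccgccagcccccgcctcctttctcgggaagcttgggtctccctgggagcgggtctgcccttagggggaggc
TRIM50: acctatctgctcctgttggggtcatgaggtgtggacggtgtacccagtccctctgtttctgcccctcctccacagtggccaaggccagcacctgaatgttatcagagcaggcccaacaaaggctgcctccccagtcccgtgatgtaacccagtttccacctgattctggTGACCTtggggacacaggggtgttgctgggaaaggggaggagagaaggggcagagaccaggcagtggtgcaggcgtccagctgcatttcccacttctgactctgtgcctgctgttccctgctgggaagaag
Of the 8 genes, 7 matched a RefSeq window, with 9 windows in all, and NFE2 had none. The motifs were TATAAA (a core promoter box), TGTTTAC (forkhead), GTTAAT (HNF1 half-site), AGGTCA (nuclear receptor half-site), AGATAA (bound by the GATA factors), TTGCNNAA (C/EBP) and TGANTCA (AP-1 and NF-E2 core), where N is any base. AGGTCA was in 1 window each of 4 of the 7 genes (LCP1, P2RY8, SCN1A and TRIM50). These are 4 of the 9 windows, against 13.8% of all 35114 windows. AGATAA was in the HEPACAM window only, against 10.3% of all windows, and CPLX2 and PRF1 held no match. TATAAA was in the LCP1 window, against 11.5%, TTGCNNAA in a P2RY8 window, against 10.5%, and TGANTCA in an SCN1A window, against 7.71%. TGTTTAC and GTTAAT, present in 3.42% and 6.88% of all windows, were in none. The windows held between 2 and 14 CpG dinucleotides, where the median of all windows was 14.

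Between 2978982 and 4304103 reads per library were assigned to genes on the sense strand, with a median of 3462418.5. Reads that mapped to several places made up 56.0% to 69.4% of each library. Known marks were seen for IFNg and ABBV-075. IRF1, an interferon-induced transcription factor, had a mean of 11.97 CPM (counts scaled to each library's effective size) in DMSO and 229 CPM in IFNg. HEXIM1, which rises with BET inhibitors, had a mean of 53.7 CPM in DMSO and 145 CPM in ABBV-075. That rise did not pass the thresholds of fold change and adjusted p used below. Of 6 genes listed as such marks, 4 could be tested with ABBV-744 against DMSO, and 0 passed those thresholds at either dose. All 18 hepatocyte marker genes of a fixed list were detected. Library composition differed between groups in a way that followed base composition. When the effect of ABBV-744 at 50 nM with IFNg was set against its effect without IFNg, the 2663 tested genes with the lowest GC content (41.4% or less in the longest transcript) had a median log2 difference of 1.00 and the 2653 genes with the highest (55.9% or more) a median of -0.60. Every comparison was therefore also fitted with each library's GC trend removed. The 8 genes have a GC content from 38.8% (SCN1A) and 45.4% (LCP1) up to 63.3% (TRIM50).

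In untreated cells the genes covered a wide range of levels. Per kilobase of exon, which allows levels to be compared between genes, CPLX2 had a mean of 49.5 CPM per kilobase in DMSO and HEPACAM 39.5, ranks 656 and 834 from the top among 14205 genes with any count. TRIM50 had 6.18 and NFE2 4.06 CPM per kilobase. PRF1 (1.39), P2RY8 (0.985), LCP1 (0.871) and SCN1A (0.665) were the lowest, with ranks from 9146 to 10629. The 4 lowest genes rested on 9 to 54 counts per DMSO library, so single counts weigh on their values.

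The genes did not come with most of the usual markers of the tissues they are known from, though some markers of glia and leukocytes were expressed. Of 75 marker genes of neurons, glia, red cell precursors and megakaryocytes, leukocytes, cytotoxic lymphocytes and gastric cells, 61 had at most 3 counts in every library and 36 of these were at 0 throughout. All 12 cytotoxic lymphocyte markers, such as GZMB (a granzyme), had at most 3 counts, beside PRF1. Of the 12 neuron markers 11 did, among them SNAP25 and SYT1 of the synaptic vesicle machinery, beside CPLX2 and SCN1A. Of the 16 red cell and megakaryocyte markers 15 did, including the globin genes and GATA1, beside NFE2. Of the 16 leukocyte markers 9 did, with PTPRC (CD45) at 0, and of the 9 gastric markers 8 did, with the proton pump genes ATP4A and ATP4B among them. Of the 10 glia markers 6 did, beside HEPACAM, while SLC1A2 and MBP had means of 36.35 and 12.99 CPM in DMSO. The summed level of the cytotoxic markers lay between 0.222 and 0.803 CPM in the DMSO libraries. Only 10 of the 75 markers had a DMSO level per kilobase at or above that of SCN1A: LYZ (lysozyme, 987 CPM per kilobase), PGC (pepsinogen C, 69.4), TUBB3 (a neuronal tubulin, 11.1), CORO1A (2.24), SLC1A2 (a glial glutamate transporter, 1.59), CD14 (1.52), TUBB1 (a megakaryocyte tubulin, 0.882), TFF1 (0.846), ITGB2 (0.700) and MBP (0.694). Whether normal hepatocytes express the 8 genes was not measured here.

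**Figure D1:**
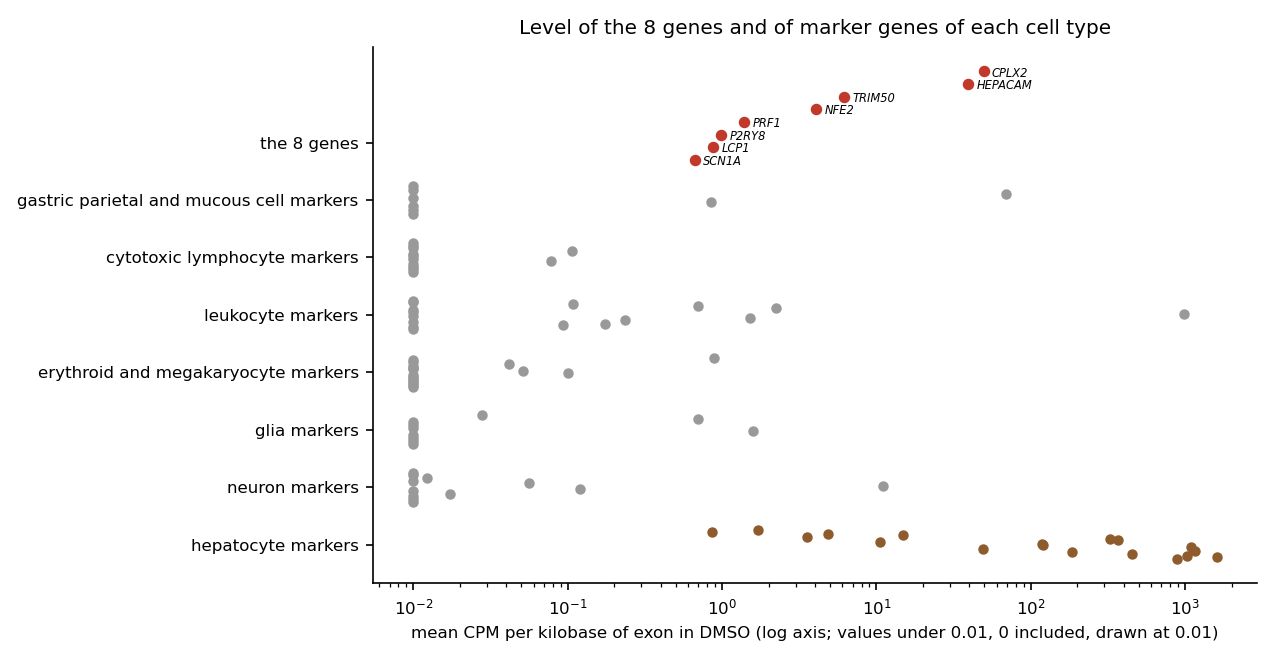
Mean level in the 3 DMSO libraries, in CPM per kilobase of exon on a log axis, of the 8 genes (red) and of marker genes of hepatocytes (brown) and of 6 other tissues (grey), with 1 point per gene. The 8 genes lie between 0.665 and 49.5 CPM per kilobase, while most markers of the other tissues lie at the left edge.

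All 8 genes were lower in every ABBV-075 library than in every DMSO library, as were 25.1% of the genes tested. HEPACAM had 163, 162 and 145 CPM in the 3 DMSO libraries and 11.3, 15.8 and 14.4 CPM with ABBV-075. Its level was 8.82% ± 1.45 of the DMSO mean (SD, n = 3). CPLX2 had 366, 345 and 331 CPM in DMSO and 45.5, 59.3 and 66.6 CPM with ABBV-075. These are the best counted genes, with 1368 to 1557 counts of CPLX2 per DMSO library. NFE2 had 31, 42 and 47 counts in DMSO and 2, 0 and 3 with ABBV-075. All 3 treated libraries were at or under a floor of 3 counts per library, so NFE2 was at least 10.7-fold lower. TRIM50 had 60, 63 and 68 counts in DMSO and 5, 6 and 5 with ABBV-075. LCP1 had 17, 20 and 18 counts in DMSO and 0, 1 and 2 with ABBV-075, and P2RY8 had 13, 20 and 23 against 1, 0 and 1. Both were at the floor with ABBV-075, LCP1 at least 4.91-fold and P2RY8 at least 4.95-fold lower. SCN1A had 54, 54 and 48 counts in DMSO and 13, 6 and 8 with ABBV-075. PRF1, the least affected, had 13, 9 and 21 counts against 5, 4 and 3. Its level was 31.1% of the DMSO mean, and it was too low for the fit of this comparison.

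The fitted log2 fold changes with ABBV-075 were -3.53 (SE 0.15) for HEPACAM, -2.63 (SE 0.14) for CPLX2, -3.39 (SE 0.28) for TRIM50 and -2.37 (SE 0.28) for SCN1A. Those of NFE2 (-4.33, SE 0.47), P2RY8 (-4.42, SE 0.59) and LCP1 (-3.88, SE 0.56) depend on the small count added by the fit. With single ABBV-075 libraries left out, NFE2 reached -5.07 (without replicate 3) and LCP1 -4.80 (without replicate 3) and -3.25 (without replicate 1). All 7 genes that could be fitted passed the thresholds used throughout, a log2 change of 1.5 or more in either direction with an adjusted p of at most 0.05, where 3.19% of the 11244 genes tested passed them in this direction. Since the decrease chose the genes, nothing is read from that count. SCN1A and CPLX2 were nearest to the fold threshold. Removing the GC trend left all 7 past it, with SCN1A at -2.73, where 2.95% of genes passed the thresholds in this direction.

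**Figure D2:**
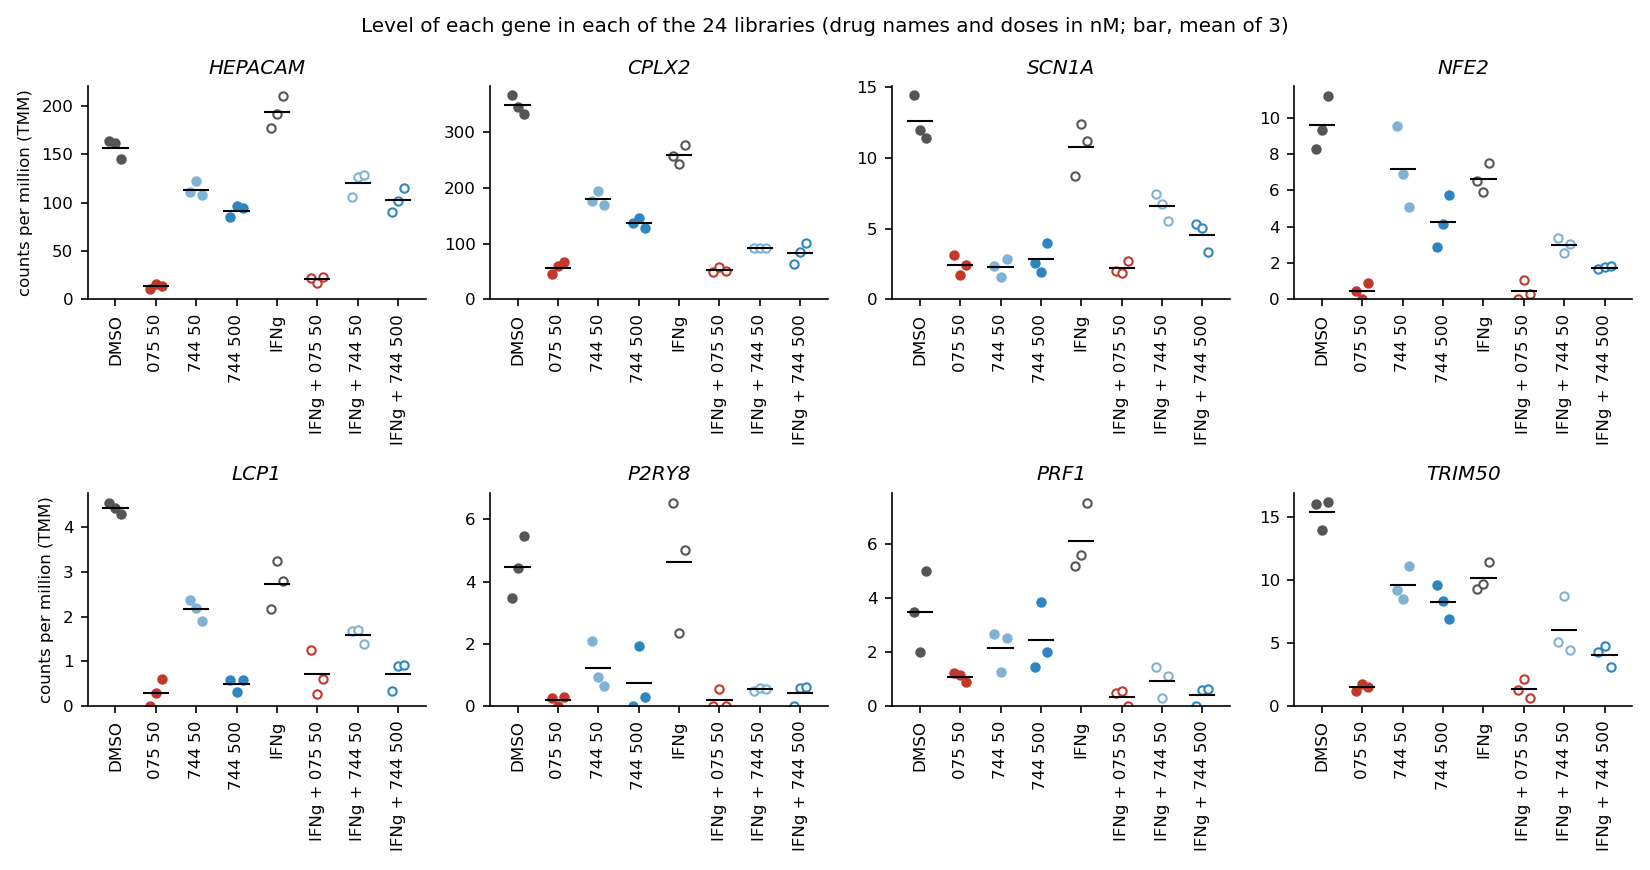
CPM of each gene in each of the 24 libraries, with filled points for the groups without IFNg, open points for those with it and a bar for the mean of 3 (names on the axis give the compound number and its dose in nM; linear axes from 0). The 3 ABBV-075 libraries lie below the 3 DMSO libraries in all 8 panels, and in the HEPACAM panel the ABBV-744 libraries lie between them.

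With ABBV-744 the 8 genes divided. HEPACAM was at 111, 122 and 107.5 CPM at 50 nM and 85.0, 96.3 and 94.2 CPM at 500 nM. These are 72.4% ± 4.84 and 58.6% ± 3.81 of the DMSO mean. CPLX2 was at 51.8% and 39.3% of it, TRIM50 at 62.3% and 53.7%, and NFE2 at 74.7% and 44.5%. The NFE2 libraries at 50 nM (9.52, 6.90 and 5.07 CPM) overlapped those in DMSO (8.29, 9.30 and 11.2 CPM). SCN1A stood apart from these genes. It had 8, 5 and 9 counts at 50 nM and 9, 6 and 14 at 500 nM, and was thus at 18.0% and 22.6% of the DMSO mean, beside 19.2% with ABBV-075. P2RY8 had 7, 3 and 2 counts at 50 nM and 0, 6 and 1 at 500 nM. LCP1 had 8, 7 and 6 counts at 50 nM, and at 500 nM its 2, 1 and 2 counts were at the floor, at least 4.61-fold below DMSO. PRF1 had 9, 4 and 8 counts at 50 nM and 5, 12 and 7 at 500 nM, and both groups overlapped DMSO. In all, 6 of the 8 genes lay below DMSO without overlap at 50 nM, beside 18.3% of the genes tested, and 7 did at 500 nM, beside 16.2%.

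At 50 nM, 2 of 7 fitted genes passed the thresholds, SCN1A (log2 fold change -2.44, SE 0.30) and P2RY8 (-1.82, SE 0.45), where 0.189% of 11116 genes passed in this direction. At 500 nM, 3 of 8 did, SCN1A (-2.11, SE 0.29), P2RY8 (-2.62, SE 0.55) and LCP1 (-3.06, SE 0.50), where 0.315% of 11124 genes passed. DESeq2 placed none of the 8 genes past the thresholds at 50 nM and 1 at 500 nM. Of all genes it placed 2 of 16389 and 24 of 16392 past them in this direction. The P2RY8 value at 50 nM rests on 7, 3 and 2 counts and was -2.44 without the first of these libraries. At 500 nM it was -4.68 without the second library, which holds 6 of its 7 counts, and -2.04 without the first.

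In the presence of IFNg the decrease with ABBV-075 was again seen in all 8 genes, which lay below IFNg alone without overlap, beside 30.6% of the genes tested. HEPACAM had 177.5, 192 and 211 CPM with IFNg alone and 21.8, 17.4 and 23.2 CPM with IFNg and ABBV-075, a log2 fold change of -3.22 (SE 0.13). CPLX2 had 256.5, 243 and 277 CPM against 49.1, 57.6 and 50.8 CPM (-2.31, SE 0.11). TRIM50 had 34, 33 and 41 counts against 5, 8 and 2 (-2.88, SE 0.36). SCN1A had 32, 42 and 40 counts with IFNg alone and 8, 7 and 9 with ABBV-075 added (-2.29, SE 0.31), and NFE2 24, 20 and 27 against 0, 4 and 1 (-3.79, SE 0.51). NFE2 was at -5.31 without replicate 2 of IFNg and ABBV-075 and at -3.15 without replicate 1. The groups did not overlap for any of these 5 genes. PRF1 had 19, 19 and 27 counts with IFNg alone and 2, 2 and 0 with ABBV-075 added, at least 6.76-fold lower. P2RY8 had 24, 8 and 18 counts against 0, 2 and 0, at least 5.14-fold lower, and LCP1 had 8, 11 and 10 against 5, 1 and 2. All 6 genes that could be fitted passed the thresholds, where 3.75% of 11187 genes passed in this direction.

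With IFNg present, PRF1 and P2RY8 had the lowest levels relative to their control with ABBV-744. PRF1 had 6, 1 and 4 counts at 50 nM and 0, 2 and 2 at 500 nM, which is at the floor and at least 6.12-fold below IFNg alone. P2RY8 had 2 counts in every library at 50 nM and 0, 2 and 2 at 500 nM, at least 5.48-fold and 4.65-fold lower. CPLX2 had 92.2, 91.9 and 91.8 CPM at 50 nM and 62.8, 84.7 and 102 CPM at 500 nM. SCN1A, by contrast, kept 31, 24 and 20 counts at 50 nM and 16, 17 and 11 at 500 nM. HEPACAM had 106, 127 and 128.5 CPM at 50 nM and 90.1, 102 and 115 CPM at 500 nM. NFE2 had 14, 9 and 11 counts at 50 nM and 5, 6 and 6 at 500 nM, TRIM50 21, 31 and 16 and then 13, 16 and 10, and LCP1 7, 6 and 5 and then 1, 3 and 3. All 8 genes lay below IFNg alone without overlap at both doses, beside 28.9% of the genes tested at 50 nM and 26.3% at 500 nM. At 50 nM, 1 of 6 fitted genes passed the thresholds (PRF1, -2.59, SE 0.43), where 0.368% of 11150 genes passed in this direction. At 500 nM, 3 of 6 did (PRF1, -3.78, SE 0.53; NFE2, -1.91, SE 0.36; CPLX2, -1.65, SE 0.12), where 0.82% of 11091 passed. With the GC trend removed SCN1A was at -1.36 at 50 nM, against -0.67 (SE 0.24) with it. The count at 500 nM was again 3, but SCN1A (-1.78) was past the fold threshold and CPLX2 (-1.38) was under it. In that fit 0.641% of genes passed in this direction. The comparisons within a background share their control libraries, so their values are set side by side and are not independent of each other.

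**Figure D3:**
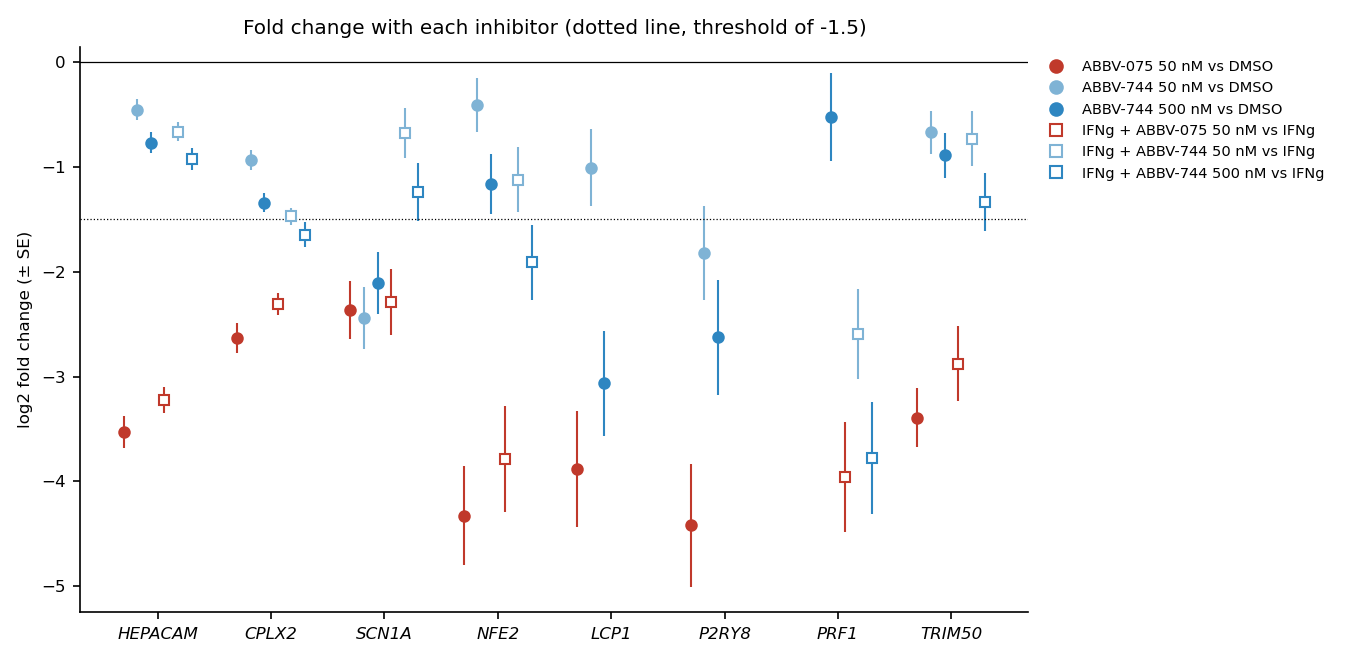
Fitted log2 fold change of each gene with each inhibitor (mean ± SE, 3 libraries per group), against DMSO (filled circles) or against IFNg alone (open squares). A point is left out where the gene was too low for that fit, and the fold changes with ABBV-075 (red) lie between -4.42 and -2.29.

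The difference between IFNg alone and DMSO was not the contrast that chose the genes and was tested, although both groups are controls of the contrasts that did (edgeR quasi-likelihood test, Benjamini-Hochberg adjustment over all 11217 genes tested). None of the 8 genes passed the fold and p thresholds, which 0.847% of genes did in either direction. DESeq2 also called none of the 8, where it called 99 of 16514 genes, all of them higher. At an unadjusted p under 0.05 there were 5 of the 8, where 14.1% of all genes were below it. At an adjusted p of at most 0.05 and any fold change there were 2, where 3.46% of all genes were. CPLX2 fell by 0.43 on the log2 scale (95% interval -0.58 to -0.28, adjusted p = 0.000105), from 331 to 366 CPM in DMSO to 243 to 277 CPM with IFNg. HEPACAM rose by 0.30 (0.13 to 0.47, adjusted p = 0.032), from 145 to 163 CPM to 177.5 to 211 CPM. The groups did not overlap for these and 4 others of the 8 genes, beside 18.7% of the genes tested. PRF1 had 9 to 21 counts in DMSO and 19 to 27 with IFNg, a log2 difference of 0.81 (0.14 to 1.48, adjusted p = 0.226). The differences of TRIM50 (-0.60, adjusted p = 0.0947), LCP1 (-0.69, adjusted p = 0.369), NFE2 (-0.53, adjusted p = 0.304), SCN1A (-0.23, adjusted p = 0.68) and P2RY8 (0.06, adjusted p = 0.965) did not pass the test either. With the GC trend removed TRIM50 had an adjusted p of 0.0234, and P2RY8 changed sign at -0.01.

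ABBV-075 and ABBV-744 were compared at the 1 dose they share, 50 nM, as 1 pair of compounds in 2 backgrounds. ABBV-075 gave the lower level of HEPACAM, NFE2, CPLX2 and TRIM50 without IFNg. By the published methods ABBV-075 was given for 12 h, and the time of ABBV-744 is not given. Compound and time therefore cannot be told apart here. The log2 differences were -3.05 for HEPACAM (95% interval -3.41 to -2.69), -3.89 for NFE2 (-5.11 to -2.66), -1.67 for CPLX2 (SE 0.15) and -2.69 for TRIM50 (-3.38 to -2.01). The adjusted p-values of the edgeR fit over 10992 genes were 1.4e-05, 0.00107, 0.000151 and 0.000425. All 4 genes that could be fitted passed the thresholds, where 1.63% of genes passed in this direction. NFE2 was at the floor with ABBV-075 and at least 7.96-fold below ABBV-744, with a fitted difference of -4.61 without ABBV-075 replicate 3. The libraries of this comparison are among those on which the genes were chosen, so neither the p-values nor the count are independent of that choice. NFE2 and TRIM50 had enough counts for the fit only with ABBV-744. SCN1A was too low for the fit. Without the filter on low counts its difference was 0.12 (-0.85 to 1.08, adjusted p = 0.886), so a difference within that interval was not detectable at this depth. With the GC trend removed, CPLX2 was at -1.30 and under the fold threshold, with an adjusted p of 9.88e-07, and the other 3 remained past it.

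With IFNg present, 3 of 4 fitted genes were lower with ABBV-075 than with ABBV-744 past the thresholds, where 1.13% of 11126 genes were. These libraries too are among those on which the genes were chosen, so the p-values and the count are not independent of that choice. TRIM50 and SCN1A had enough counts for the fit only with ABBV-744. Compound and time cannot be told apart here either. HEPACAM was lower by a log2 difference of -2.49 (95% interval -2.74 to -2.24) and TRIM50 by -2.08 (-2.91 to -1.24). SCN1A was at 1.99, 1.90 and 2.71 CPM with ABBV-075 and 7.46, 6.77 and 5.52 CPM with ABBV-744, a difference of -1.54 (-2.23 to -0.85, edgeR adjusted p = 0.000418). It fell just under the fold threshold when any of 3 single libraries was left out, at -1.46 to -1.44, and when the GC trend was removed, at -1.42. CPLX2 differed by -0.76 (-0.97 to -0.55, edgeR adjusted p = 1.95e-07), under the fold threshold.

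**Figure D4:**
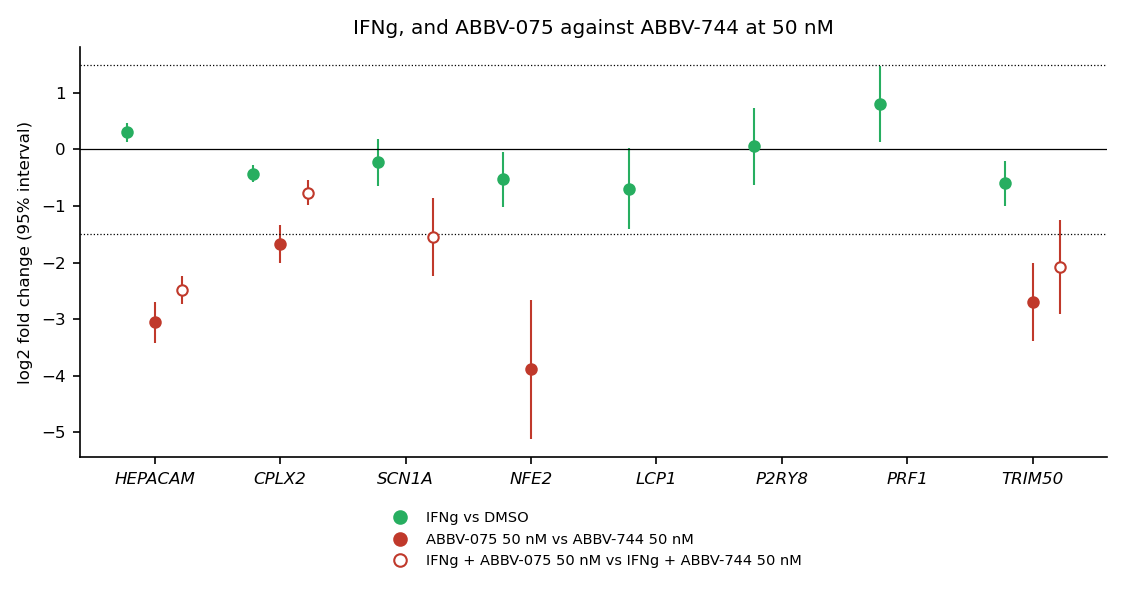
Log2 fold change with its 95% interval for IFNg against DMSO (green) and for ABBV-075 against ABBV-744 at 50 nM without IFNg (red, filled) and with it (red, open), with 3 libraries per group and dotted lines at the fold threshold of 1.5 in either direction. The IFNg intervals of all 8 genes lie within the dotted lines, and the 4 filled red points lie between -3.89 and -1.67.

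Between the 50 nM and 500 nM doses of ABBV-744, 4 of the 8 genes could be fitted without IFNg and no difference passed the thresholds. HEPACAM differed by a log2 value of -0.31 (95% interval -0.55 to -0.07), CPLX2 by -0.40 (-0.63 to -0.17), NFE2 by -0.75 (-1.45 to -0.06) and TRIM50 by -0.22 (-0.74 to 0.31), with adjusted p-values between 0.431 and 0.893. At an unadjusted p under 0.05 there were 3 of the 4 (HEPACAM, CPLX2 and NFE2), where 633 of 10967 genes were. The edgeR fit called none of the 10967 genes (0.0%), and DESeq2 called 1 of 16127, which was not among the 8. LCP1 was too low for the fit, but its 8, 7 and 6 counts at 50 nM and 2, 1 and 2 at 500 nM did not overlap, and it was at least 2.25-fold lower at 500 nM. Without the filter on low counts its log2 difference was -2.04 (-3.53 to -0.56, adjusted p = 0.545). With IFNg present the 4 fitted genes differed by -0.11 (CPLX2) to -0.54 (TRIM50), and none passed, where 0.00907% of 11022 genes did. None of the 4 had an unadjusted p under 0.05 there (1531 genes did), and DESeq2 called 0 of the 8 and 0 of 16261 genes.

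The last question was whether IFNg altered the effect of an inhibitor, tested as the difference between the effect with and without IFNg. The inhibitor libraries are among those on which the genes were chosen. The p-values of the 8 genes and the counts called are therefore not independent of that choice. For ABBV-075 none of the 8 genes passed, where 0.0173% of 11530 genes did (2 genes, with 775 at an unadjusted p under 0.05 and 5 called by DESeq2). Of the 8, 2 had an unadjusted p under 0.05 and DESeq2 called 0. For ABBV-744 at 50 nM, 2 of the 8 passed, where 6.44% of 11451 genes did, and for ABBV-744 at 500 nM 1 did, where 3.07% of 11428 genes did. At 50 nM, 3 of the 8 and 6566 of all genes had an unadjusted p under 0.05. At 500 nM, 2 of the 8 and 4907 of all genes did. SCN1A was at 18.0% of DMSO with 50 nM and at 61.2% of IFNg alone with IFNg added, a log2 difference of 1.74 (95% interval 0.94 to 2.53, edgeR adjusted p = 0.000524). PRF1 was at 61.8% of DMSO and at 15.5% of IFNg alone, a difference of -1.96 (-3.32 to -0.61, adjusted p = 0.0147). CPLX2 had an adjusted p of 0.000266 at a difference of -0.57, under the fold threshold.

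The GC trend moved with these 3 values. After its removal none of the 8 genes passed at 50 nM: SCN1A had 0.80 (-0.02 to 1.62, adjusted p = 0.168), PRF1 -1.39 (adjusted p = 0.137) and CPLX2 0.01 (adjusted p = 0.969). The share of genes called went from 6.44% to 0.771%, and the split from 664 higher and 73 lower to 40 higher and 42 lower. The 2 tested genes next to SCN1A, TTC21B and SCN9A, have a like GC content (38.0% and 38.7%, against 38.8% for SCN1A) and had differences of 1.64 and 1.41. The median of all genes was at -0.14, and at -0.08 with DESeq2-type size factors or 0.04 with library size only, and SCN1A and PRF1 passed the thresholds under all 3 scalings. Multi-mapped reads made up 66.2% to 69.4% of the libraries with ABBV-744 at 50 nM alone and 57.5% to 59.6% of those with IFNg added, against 56.0% to 61.0% in DMSO and 58.3% to 66.4% in IFNg. Their part in the result was not tested. PRF1 also lost the call without the second library of IFNg and ABBV-744 at 50 nM (-1.55, adjusted p = 0.0565).

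At 500 nM the difference of PRF1 was -3.24 (-4.85 to -1.64, edgeR adjusted p = 0.00184), and with the GC trend removed -2.89 (-4.44 to -1.35, adjusted p = 0.00568). It lay between -3.61 and -2.75 when single libraries were left out. PRF1 was at 69.7% of DMSO with ABBV-744 alone and, with IFNg, at the floor of at most 2 counts per library. That low level may have been a reason for its choice, so its p-value is not independent of the choice. SCN1A had a difference of 0.89 at this dose (adjusted p = 0.102), and 0.18 with the GC trend removed.

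**Figure D5:**
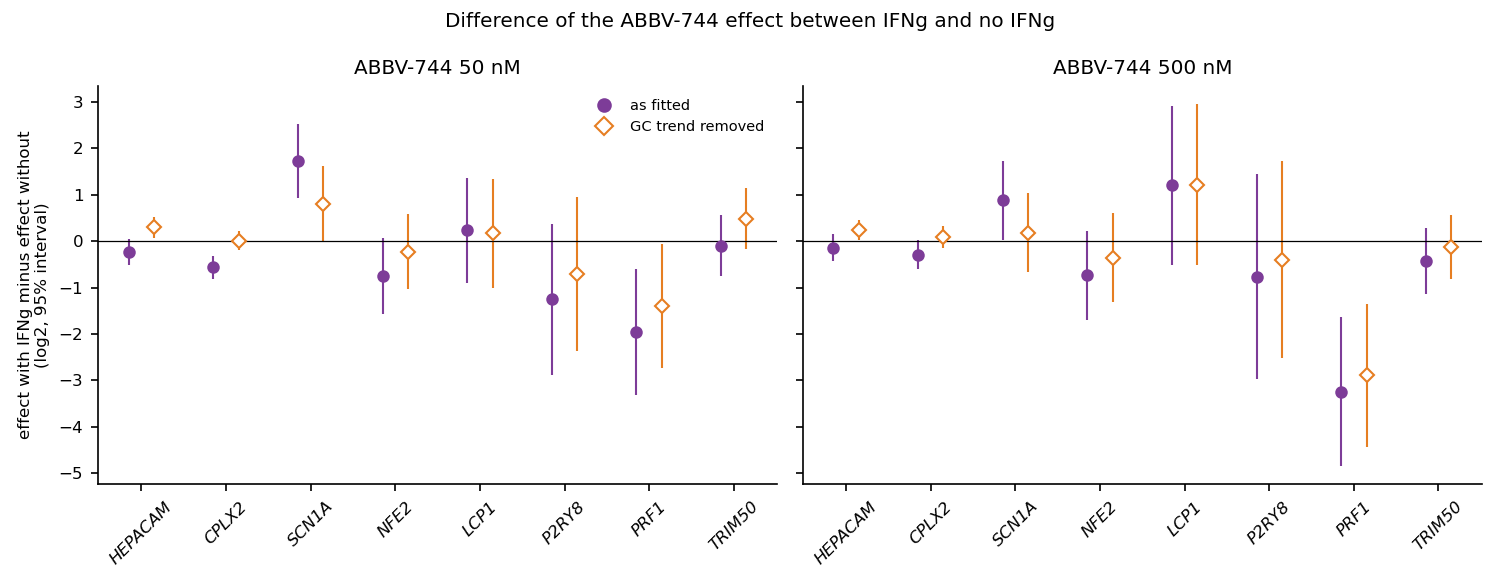
Effect of ABBV-744 with IFNg minus its effect without IFNg, on the log2 scale with 95% intervals, for 50 nM (left) and 500 nM (right), as fitted (purple circles) and with each library's GC trend removed (orange diamonds), over 12 libraries each. SCN1A moved from 1.74 to 0.80 at 50 nM, and PRF1 stayed below 0 at 500 nM at -3.24 and -2.89.

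Genes that work with the 8 genes were read from lists of relatives and partners. Of 91 such genes 46 could be tested with ABBV-075, and 4 of them (8.7%) passed the thresholds in either direction, beside 4.28% of all genes tested. Of the 7 HEPACAM partners, 5 had at most 3 counts, among them MLC1, the membrane protein that HEPACAM binds in astrocytes. KCNJ10, a glial potassium channel, was measurable and fell by 2.15 with ABBV-075 (SE 0.36, edgeR adjusted p = 0.00079) and by 1.60 with IFNg and ABBV-075. Of 19 complexin and SNARE genes none of the 12 tested passed with ABBV-075, and VAMP1 alone passed with IFNg and ABBV-075, where it rose by 1.54 (SE 0.27). Of 13 other sodium channel genes 8 had at most 3 counts and none of the 3 tested passed. SCN9A, the most abundant, had a log2 difference of 0.60 with ABBV-075, opposite in sign to SCN1A. Its GC content is 38.7%, and the tested genes of 41.4% or less had a median of 0.39 in this comparison. The part of the GC trend in the SCN9A value was not tested. None of the 7 tested NF-E2 family genes passed, and MAFG, a small MAF partner of NFE2, was at 0.07 (SE 0.15). None of 10 plastin and actin-bundling genes passed, with PLS3 (T-plastin) at 0.25 (SE 0.17). Of the P2RY8 relatives S1PR2, a receptor for sphingosine 1-phosphate, fell by 1.61 with ABBV-075 (SE 0.42) and by 1.69 with ABBV-744 at 500 nM (SE 0.46). Of the TRIM50 relatives TRIM62 rose by 1.71 with ABBV-075 (SE 0.40). Among perforin and granule exocytosis genes, LYST, a regulator of lysosomal trafficking, rose by 1.85 (SE 0.28) with ABBV-075, while UNC13D, which primes granules for release, was at -1.21 (SE 0.19) and under the fold threshold.

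The nearest tested gene on either side of each of the 8 genes gave 16 neighbours. Their median log2 value with ABBV-075 was 0.02, and 1 of the 16 passed the thresholds, where 3.19% of all genes did in that direction: CPB2, 106838 bases from LCP1, which fell by 2.21 (SE 0.16). COPZ1, which starts 187 bases from NFE2 on the other strand, was at -0.59 (SE 0.13), where NFE2 was at -4.33. SCN9A and TTC21B beside SCN1A were at 0.60 and 0.76. Their GC content is 38.7% and 38.0%, and the tested genes of 41.4% or less had a median of 0.39. EIF4EBP2 and SGPL1 beside PRF1 were at 1.03 and -0.35.

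The genes whose pattern over the 8 group means was most like each of the 8 were sought among 11693 genes, by the root mean square difference of centred log2 CPM. TRIM50 was nearest to SLC5A9 (0.134, Pearson's r = 0.99 over 8 group means) and NFE2 to C2orf54 (0.173), with TRIM50 second (0.213). CPLX2 was nearest to HIST1H2BM (0.176) and then to TAT, tyrosine aminotransferase of the hepatocyte (0.200). HEPACAM was nearest to LIF (0.276), SCN1A to ODAM (0.222), LCP1 to BAAT (0.334), P2RY8 to CYP19A1 (0.339) and PRF1 to DPAGT1 (0.360). The group means share libraries and depth, and these values are a description. Of the 24 names, 3 for each gene, 10 stayed among the nearest 3 with a smaller prior count and 5 when Pearson's r was used. TAT, LIF, CYP19A1 and DPAGT1 did not stay under either change.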

How the data were processed

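Total RNA of HepG2 cells was sequenced after ribosomal RNA depletion in 24 directional libraries. Per the labels, the authors used CASAVA 1.8.2, Trimmomatic 0.33, STAR 2.7.1 and DESeq2 on hg38, and the deposited files hold raw read counts per gene, of which the sense-strand column was used. Groups and replicates were taken from the labels. The genes and gene lists were chosen with earlier results of these data known.

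Counts were tested in edgeR 4.0.16 (R 4.3.3, quasi-likelihood, filterByExpr, TMM scaling), with only the groups of each comparison in the fit and Benjamini-Hochberg adjustment over all genes tested. A gene was called at a log2 change of 1.5 or more in either direction with an adjusted p of at most 0.05. Intervals are 95%. Counts of at most 3 per library were treated as a floor, and floors and folds against it cover counting error only. Alternatives were DESeq2 1.42.0, other scalings, filters, libraries left out, a replicate block and, chosen after seeing the data, removal of each library's trend with GC content. The fits were tested on simulated data. Levels per kilobase used GENCODE 44, which gave a length for 23161 of 26475 symbols. Named genes were the 8, their nearest tested neighbours, the 3 genes nearest in pattern, and called or most abundant genes of partner lists. Figures were drawn with matplotlib 3.10.9.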

Additional observations from a re-analysis of the deposited data

Results flagged for a closer look

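The effect of ABBV-744 differed with and without IFNg at an adjusted p of at most 0.05, by the test of the difference itself, in 4 cases. The genes were chosen on these inhibitor libraries among others, so these p-values are not independent of that choice. CPLX2 was under the fold threshold. Such differences were frequent: 6566 of 11451 genes at 50 nM and 4907 of 11428 at 500 nM had an unadjusted p under 0.05. Of the 8 genes, 3 and 2 did. At 50 nM the log2 difference was -0.57 for CPLX2, 1.74 for SCN1A and -1.96 for PRF1, and with each library's GC trend removed it was 0.01, 0.80 and -1.39, none of them past an adjusted p of 0.05 in edgeR. At 500 nM the difference of PRF1 was -3.24, and -2.89 with the GC trend removed, where it passed both thresholds. Its level with IFNg and ABBV-744 at 500 nM was at the floor of 3 counts per library.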

How the results depend on the processing

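The described decreases with ABBV-075 kept their direction under every alternative run. Requiring at least 10 counts in every library left fewer of the 8 genes to test. Against DMSO, 2 could be tested with ABBV-075 and both were called, where 159 of 10306 genes were called lower. With ABBV-744, 4 could be tested at each dose and 0 were called. Of all genes, 2 of 10378 were called lower at 50 nM and 5 of 10366 at 500 nM. Against IFNg, 2 of 2, 0 of 4 and 1 of 4 tested genes were called. Of all genes, 217 of 10204, 24 of 10364 and 40 of 10258 were called lower there. The same filter gave 2 of 2 tested for ABBV-075 against ABBV-744 at 50 nM, where 79 of 10148 genes were called lower. With IFNg it gave 1 of 2, where 55 of 10350 genes were. For the difference of the ABBV-744 effect with and without IFNg it gave 0 of 3 at each dose. At 50 nM, 563 of 10102 genes were called higher and 29 lower. At 500 nM, 274 of 10036 were called higher and 5 lower. DESeq2 called 0 of the 8 for ABBV-744 at 50 nM and 1 at 500 nM against DMSO. It called 2 of 16389 and 24 of 16392 genes lower there. For 50 nM with IFNg it called 2 of the 8, where 65 of 16430 genes were called lower. Without the filter, and with all 24 libraries in the fit, 2 were called for ABBV-744 at 50 nM and 5 at 500 nM with IFNg. Without the filter, 129 of 16430 and 189 of 16338 genes were called lower there. With all 24 libraries, 67 and 123 of 11676 genes were. GC correction, chosen after seeing the data, left 0 called for the difference of the ABBV-744 effect at 50 nM, and 3 and 2 for ABBV-075 against ABBV-744 without and with IFNg. Of all genes, 0.771% were called for that difference, and 1.23% and 1.15% were called lower for ABBV-075 against ABBV-744. The cause of these changes, other than fewer genes tested, was not tested.

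With single libraries left out the number called was 7 to 8 for ABBV-075, 1 to 2 for ABBV-744 at 50 nM (1 without its replicate 3) and 3 to 3 at 500 nM. Of 11200 to 11462 genes tested, 373 to 460, 19 to 38 and 37 to 63 were called lower there. Against IFNg the number of the 8 called was 6 to 8, 1 to 3 (3 without IFNg replicate 2) and 3 to 4. Of 11201 to 11388 genes tested, 431 to 490, 50 to 79 and 99 to 139 were called lower there. For ABBV-075 against ABBV-744 the number of the 8 called was 4 to 4 and, with IFNg, 2 to 4. Of all genes, 191 to 271 and 135 to 156 were called lower there. For the difference at 50 nM it was 1 to 2, where 451 to 943 genes were called higher and 75 to 101 lower. P2RY8 changed sign for IFNg against DMSO, at -0.0055 with library size only, -0.010 with GC correction and -0.27 to 0.36 with single libraries left out. CPLX2 ranged from -0.29 to 0.061 (without IFNg and ABBV-744 500 nM replicate 1) between the ABBV-744 doses with IFNg, and its difference at 50 nM was 0.0085 with GC correction. No comparison had a correlation of deviations over 0.1 in every pair of same-numbered libraries (-0.169 to 0.0705 for ABBV-075 against DMSO). The mean was highest, at 0.214, between the ABBV-744 doses without IFNg (0.0576 to 0.333), so pairing is not excluded there. In that comparison 1731 of 10967 genes had an unadjusted p under 0.05 with a replicate block, against 633 without it. The block called 0 of the 8 there, and 1 gene higher and 1 lower in all. A replicate block called 7 of the 8 for ABBV-075 against DMSO, as the fit without it did, and 362 of 11244 genes lower. Genes with few counts, LCP1, P2RY8 and PRF1 above all, are limited by depth.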

Other observations

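Other genes of non-liver tissues that HepG2 expressed also fell with ABBV-075, among lists drawn up with earlier results known. SLC1A2, a glutamate transporter of astrocytes, fell by 1.83 on the log2 scale (SE 0.17, edgeR adjusted p = 1.57e-05), from a mean of 36.4 CPM to 10.3 CPM. PGC, pepsinogen C of the stomach, fell by 1.76 with IFNg and ABBV-075 against IFNg (SE 0.13, edgeR adjusted p = 1.13e-14). CD14, a monocyte receptor, fell by 2.30 in the same comparison (SE 0.50, edgeR adjusted p = 0.000154). TUBB1, a megakaryocyte tubulin, had a mean of 2.93 CPM in DMSO and 0.241 CPM with ABBV-075 and was too low for the fit. TUBB3, a neuronal tubulin, rose by 0.79 with ABBV-075 (SE 0.12, edgeR adjusted p = 0.000424), under the fold threshold.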
